A study of Mus musculus with 15 samples.

Results

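The DNA replication machinery was followed in RNA from brain microvessels of mice with glioblastoma. Its members are the 35 genes whose KEGG pathway annotation in the deposited table includes DNA replication, of 27174 genes in all. They code for the helicase that opens the double strand, the 3 replicative polymerases and primase, the sliding clamp and its loader, the single-strand binding proteins and the enzymes that finish the lagging strand. The rule used the annotation and no measured value, though it was chosen with earlier results of these data known. Of the 35 genes, 34 passed the filter on low values and were tested. The gene left out was Fen1, the flap endonuclease that trims Okazaki fragments.

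The study compared 5 groups of 3 libraries, and each library is a pool of 3 wild-type BL6/57 mice. The triple therapy group received Aflibercept-AMG386 and anti-PD1. Aflibercept is a decoy receptor that traps VEGF, AMG386 neutralises angiopoietins, and anti-PD1 blocks a checkpoint receptor of T cells. The dual therapy group received Aflibercept-AMG386 alone, and the untreated tumour group received control IgG. In these 3 groups the microvessels came from the tumour-bearing region, 21 days after tumour cells were transplanted into the brain. The contralateral group is the tumour-free opposite region of mice given control IgG, and the sham group is healthy mice after a sham operation. The tumour cell line, the age of the mice and the doses are not named in the sources used here. Whether contralateral and untreated tumour libraries came from the same mice is not given either, and microvessel isolation leaves other cells in the preparation.

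Replication starts at origins, where a ring of 6 Mcm proteins is loaded in G1 and switched on at the start of S phase. Polymerase alpha with primase lays down primers, polymerase epsilon extends the leading strand and polymerase delta the lagging strand, each held on DNA by the clamp Pcna. Many of these genes are transcribed more as cells enter S phase, under E2F factors that are held back by Rb proteins in resting cells. Endothelial cells of the healthy adult brain rarely divide.

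Promoters are shown because E2F sites near the start are a known feature of S phase genes. RefSeq windows of 300 bases, from 250 before to 50 after a transcription start, were available for 29 of the 35 members (GRCm38.p6, 35 windows). They were searched on both strands for 4 forms of the E2F site, TTTCCCGC, TTTCGCGC, TTTGCCGC and TTTGGCGC, with overlapping matches counted apart. A match lay in 12 of the 35 member windows (34.3%) and in 744 of 32851 windows of all genes (2.26%). The general promoter motif CCAAT, searched on both strands, lay in 48.6% of member windows and in 37.4% of all windows. Median GC content was 59.7% in member windows and 52.7% in all windows, and its part in the difference was not tested. By gene, 10 of the 20 members with a window that rose in untreated tumour held an E2F match, as did 1 of the 8 that were tested and not called there, Pole4. The 4 members with full values whose windows hold a match are Mcm5, Pola1, Lig1 and Pold1, and for Lig1 the match lies in 1 of 3 windows. In the 4 lines below the capitals mark the E2F matches, which overlap each other in Mcm5 and lie before the start in Mcm5 and Pola1 and after it in Lig1 and Pold1.
Mcm5, chr8:75109259-75109558, plus strand: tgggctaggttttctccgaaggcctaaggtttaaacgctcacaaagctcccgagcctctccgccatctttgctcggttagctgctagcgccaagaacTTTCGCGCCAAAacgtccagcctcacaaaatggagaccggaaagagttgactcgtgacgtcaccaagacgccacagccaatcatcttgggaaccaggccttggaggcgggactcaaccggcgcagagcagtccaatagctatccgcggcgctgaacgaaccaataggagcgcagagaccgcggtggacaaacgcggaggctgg
Pola1, chrX:93632106-93632405, minus strand: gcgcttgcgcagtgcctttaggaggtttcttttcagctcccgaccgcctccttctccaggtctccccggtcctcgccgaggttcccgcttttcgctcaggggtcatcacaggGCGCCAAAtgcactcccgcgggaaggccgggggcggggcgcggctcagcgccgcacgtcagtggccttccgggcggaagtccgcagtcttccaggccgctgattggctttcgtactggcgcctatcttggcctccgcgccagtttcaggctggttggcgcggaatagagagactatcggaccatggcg
Lig1, chr7:13278576-13278875, plus strand: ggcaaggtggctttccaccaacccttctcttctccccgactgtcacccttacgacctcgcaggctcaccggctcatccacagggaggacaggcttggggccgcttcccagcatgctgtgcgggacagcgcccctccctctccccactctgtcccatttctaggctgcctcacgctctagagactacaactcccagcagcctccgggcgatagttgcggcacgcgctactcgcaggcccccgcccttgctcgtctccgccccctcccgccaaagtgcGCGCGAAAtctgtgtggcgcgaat
Pold1, chr7:44548766-44549065, minus strand: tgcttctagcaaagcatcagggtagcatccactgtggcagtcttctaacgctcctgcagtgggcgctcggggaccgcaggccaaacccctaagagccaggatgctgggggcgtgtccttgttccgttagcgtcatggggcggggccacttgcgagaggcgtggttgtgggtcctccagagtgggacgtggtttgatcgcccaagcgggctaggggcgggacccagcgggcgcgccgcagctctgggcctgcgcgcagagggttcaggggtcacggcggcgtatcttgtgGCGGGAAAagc
Among the members with full values, no match was found in the windows of Mcm2, Pole3, Pold4, Pcna, Rfc4, Rfc1, Rpa2, Rnaseh2c, Ssbp1, Dna2 and Rpa1. Of these, Dna2 had the largest and Rpa1 the smallest change in absolute size in untreated tumour against contralateral vessels. The windows of Dna2 and Rpa1 are shown to set beside the matches. Absence of these letters says nothing about other forms of the site or other positions.
Dna2, chr10:62946779-62947078, plus strand: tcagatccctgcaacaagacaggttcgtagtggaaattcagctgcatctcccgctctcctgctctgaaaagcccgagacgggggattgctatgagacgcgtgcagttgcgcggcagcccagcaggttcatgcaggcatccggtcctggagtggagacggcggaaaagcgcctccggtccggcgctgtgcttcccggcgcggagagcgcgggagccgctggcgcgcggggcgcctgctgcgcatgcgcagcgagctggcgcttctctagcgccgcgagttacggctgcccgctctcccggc
Rpa1, chr11:75348334-75348633, minus strand: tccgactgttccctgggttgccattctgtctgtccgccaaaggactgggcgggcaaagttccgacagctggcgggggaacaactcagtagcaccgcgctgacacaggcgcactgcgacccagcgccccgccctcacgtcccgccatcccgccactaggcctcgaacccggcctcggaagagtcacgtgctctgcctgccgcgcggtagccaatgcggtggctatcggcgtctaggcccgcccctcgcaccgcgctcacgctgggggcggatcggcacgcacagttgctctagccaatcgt

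Values are normalised scores: read numbers scaled per library by the authors and rounded. Estimated depth ran from 6366272 reads in sham replicate 2 to 18325626 reads in triple therapy replicate 3, and a library held between 3004 and 13127 estimated reads of the 35 genes. Fold changes are differences of log2(score + 1) with the standard error (SE) of 1 limma fit over all 15 libraries, which understates changes of low scores. A gene rose or fell where its Benjamini-Hochberg adjusted p over the 19668 genes tested was below 0.05. The scores of untreated tumour replicate 2 summed to 15799111, and those of the other libraries to between 11134670 and 12718557. An earlier analysis of these data had set apart that library and dual therapy replicate 2. Without both, 27 members rose in untreated tumour against contralateral vessels (all genes: 4278 of 19668) and 26 against sham (all genes: 4687). With dual therapy 20 fell (all genes: 1718), and with triple therapy 23 (all genes: 3197).

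Replication genes rose broadly in untreated tumour vessels. The scores of all 35 genes summed to 14337, 11499 and 11701 in the 3 untreated tumour libraries, against 6130, 6042 and 5862 in contralateral and 5475, 5590 and 5649 in sham libraries. Of the 34 genes tested, 25 rose against contralateral vessels (all genes: 21.1%) and 0 fell (all genes: 21.4%). Against sham vessels the same 25 rose (all genes: 23.3%) and again 0 fell (all genes: 23.3%). The median log2 fold change of the 34 genes was 1.04 against contralateral and 1.33 against sham, beside 0.01 and 0.03 over all genes tested. In each of the 25 genes the lowest untreated tumour library lay above the highest contralateral library, as it did in 93.9% of all genes that rose and in 25.3% of all genes tested. The Mcm helicase made up 37.2% of the difference in summed score and polymerase alpha with primase 21.4%. In bulk RNA a larger number of replicating cells and more RNA per cell cannot be told apart.

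**Figure D1:**
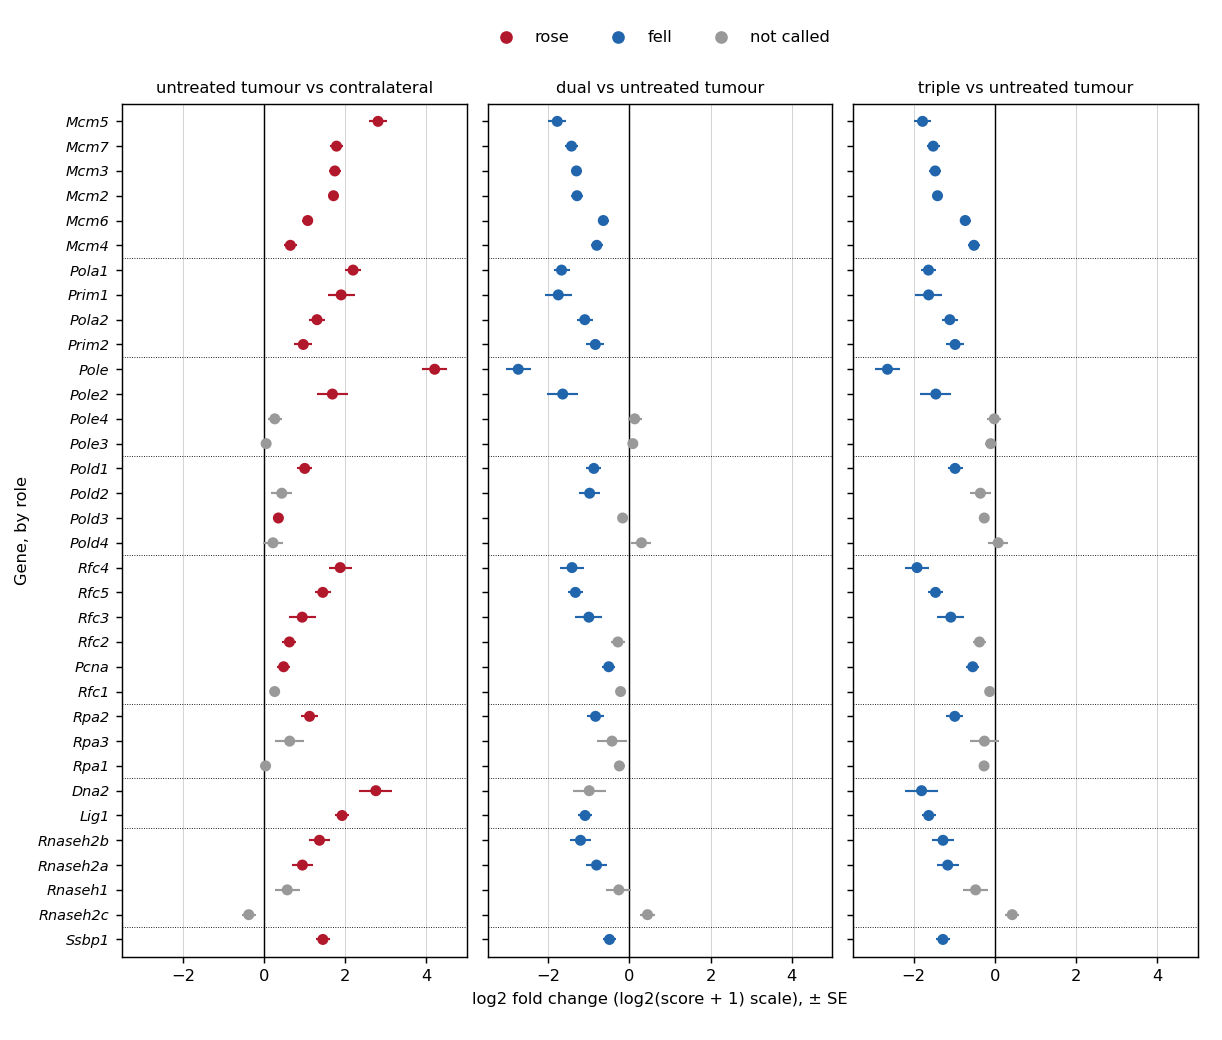
Log2 fold change (± SE) of the 34 tested genes, grouped by role, in untreated tumour against contralateral vessels (left) and in dual (middle) and triple therapy (right) against untreated tumour. In the left panel 25 genes rose, and in the middle and right panels 23 fell.

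All 6 helicase subunits rose. Mcm5 rose most, with scores of 748, 515 and 567 in untreated tumour, against 83, 72 and 103 in contralateral and 85, 67 and 99 in sham libraries, a log2 fold change of 2.81 ± 0.22 against contralateral (limma adjusted p = 3.76e-08). Mcm2 had 622, 540 and 508 in untreated tumour, against 174, 151 and 183 in contralateral and 151, 147 and 141 in sham libraries (1.71 ± 0.14, limma adjusted p = 5.03e-08). Mcm4 rose least, with 829, 544 and 723 in untreated tumour, against 507, 441 and 379 in contralateral and 348, 376 and 427 in sham libraries (0.65 ± 0.15, limma adjusted p = 0.0025). The untreated tumour and contralateral libraries did not overlap for any of the 3 genes. Mcm3, Mcm6 and Mcm7 lay between Mcm5 and Mcm4, with log2 fold changes of 1.74, 1.08 and 1.78. Of the exon bases of Mcm7, 12.6% are shared with other genes.

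The helicase holds 1 copy of each subunit, and per length of exon the levels of the 6 messages lay closer together in tumour. In untreated tumour, mean scores per kilobase of exon ran between 80.0 for Mcm2 and 195 for Mcm4, a ratio of 2.43. In contralateral vessels they ran between 21.5 for Mcm5 and 123 for Mcm4, a ratio of 5.72, and in sham vessels the same pair gave a ratio of 5.10. Under triple and dual therapy Mcm2 was lowest and Mcm4 highest, with ratios of 4.51 and 3.38. This was not shared by every complex. Polymerase alpha with primase went the other way, with ratios of 4.21 in untreated tumour and 2.06 in contralateral vessels. Polymerase epsilon (6.53 and 71.9), polymerase delta (2.51 and 3.95) and the clamp loader without Pcna (4.66 and 7.36) went the same way as the helicase. These lengths are the union of all annotated exons, which overstates the length of some messages, so ratios describe levels within these files and were not tested.

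**Figure D2:**
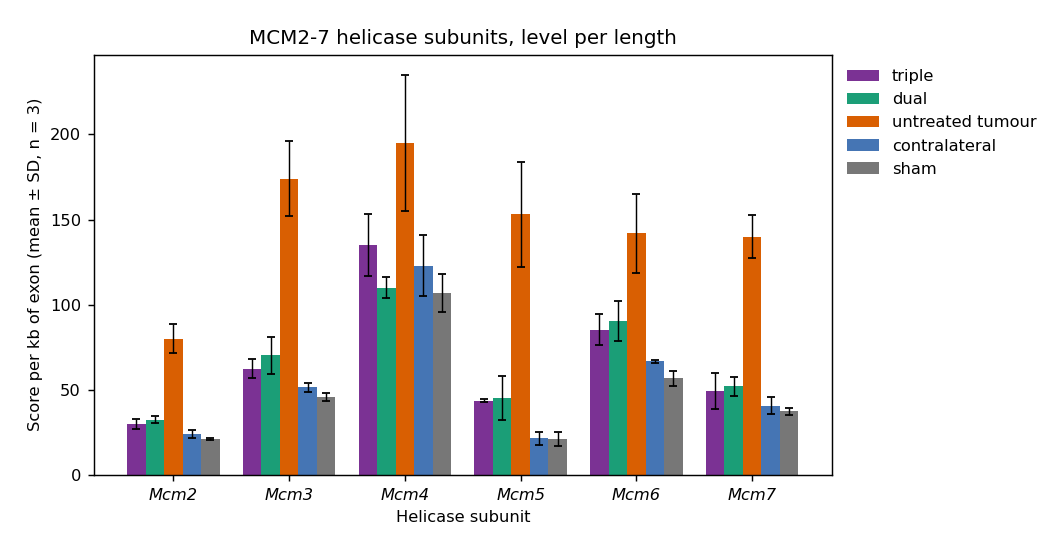
Mean score per kilobase of exon (± SD, n = 3) of the 6 Mcm helicase subunits in triple therapy, dual therapy, untreated tumour, contralateral and sham vessels, with the bars starting at 0. Mcm4 is the highest subunit in all 5 groups, and Mcm5 moves between 153 in untreated tumour and 21.5 in contralateral vessels.

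Polymerase alpha and primase, which begin every new strand, rose with all 4 subunits. Pola1, the catalytic subunit, had scores of 1649, 857 and 1165 in untreated tumour, against 297, 267 and 215 in contralateral and 274, 238 and 272 in sham libraries (2.19 ± 0.20, limma adjusted p = 1.42e-07). Prim2, the large primase subunit, rose least, with 227, 184 and 177 in untreated tumour, against 95, 117 and 88 in contralateral and 100, 132 and 62 in sham libraries (0.97 ± 0.23, limma adjusted p = 0.00209). Prim1, the primase that makes the RNA primer, and Pola2, the accessory subunit, had log2 fold changes of 1.90 and 1.30. No untreated tumour library overlapped a contralateral one for these 4 genes.

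Within polymerase epsilon the subunits parted. Pole, the catalytic subunit of the leading strand, had scores of 711, 452 and 513 in untreated tumour, against 30, 22 and 36 in contralateral and 16, 28 and 21 in sham libraries. Its log2 fold change of 4.21 ± 0.31 was the largest of all members (limma adjusted p = 2.1e-08). Pole2, the subunit that binds the catalytic one, rose by 1.68 ± 0.38. Pole3, a small histone-fold subunit that also serves in chromatin remodelling, had 373, 471 and 362 in untreated tumour, against 384, 391 and 382 in contralateral and 359, 402 and 404 in sham libraries (0.05 ± 0.13, limma adjusted p = 0.787). The libraries of the 3 groups overlap for Pole3. Pole4, its histone-fold partner, was not called either, at 0.26 ± 0.17. Per kilobase of exon, Pole averaged 50.1 ± 12.1 in untreated tumour and 2.63 ± 0.63 in contralateral vessels (SD, n = 3 each), while Pole3 averaged 197 ± 29.4 in untreated tumour and 189 ± 2.32 in contralateral vessels.

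Polymerase delta moved less. Pold1, the catalytic subunit, had 218, 194 and 233 in untreated tumour, against 120, 104 and 97 in contralateral and 113, 102 and 95 in sham libraries (1.0 ± 0.18, limma adjusted p = 0.000261). Pold4, the smallest subunit, had 76, 150 and 128 in untreated tumour, against 114, 81 and 100 in contralateral and 111, 149 and 85 in sham libraries (0.22 ± 0.25, limma adjusted p = 0.505), with full overlap between the groups. Of the exon bases of Pold4, 24.6% are shared with a gene on the same strand. Pold3 rose by 0.35 ± 0.12, and Pold2 was not called at 0.44 ± 0.26. The call of Pold3 was lost with 5 of the alternatives tried against contralateral vessels.

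Of the clamp and its loader, 5 of 6 genes rose. Pcna, the sliding clamp, had 627, 605 and 533 in untreated tumour, against 385, 532 and 363 in contralateral and 387, 383 and 399 in sham libraries (0.48 ± 0.16, limma adjusted p = 0.0181). The lowest untreated tumour library stood just above the highest contralateral one, and without untreated tumour replicate 1, contralateral replicate 1 or contralateral replicate 3 the call was lost (limma adjusted p = 0.0602, 0.075 and 0.0972). Rfc4, a small loader subunit, had 288, 133 and 174 in untreated tumour, against 63, 41 and 50 in contralateral and 61, 37 and 43 in sham libraries (1.88 ± 0.29, limma adjusted p = 3.96e-05). Rfc1, the large loader subunit, had 844, 654 and 729 in untreated tumour, against 673, 511 and 681 in contralateral and 652, 607 and 632 in sham libraries (0.26 ± 0.12, limma adjusted p = 0.1). Untreated tumour overlapped contralateral vessels for Rfc1 and lay apart for Rfc4. Rfc5, Rfc3 and Rfc2 rose by 1.45, 0.94 and 0.62 on the log2 scale. The call of Rfc3 was lost with quality weights, with quantile normalisation, and without untreated tumour replicate 1 or contralateral replicate 2 or 3 (limma adjusted p between 0.0574 and 0.141), and against sham without untreated tumour replicate 1 or sham replicate 3 (limma adjusted p = 0.0798 and 0.0532).

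Replication protein A coats single-stranded DNA as a complex of 3 subunits, and 1 of them rose. Rpa2, the middle subunit, had 209, 153 and 205 in untreated tumour, against 95, 89 and 74 in contralateral and 87, 58 and 77 in sham libraries (1.12 ± 0.21, limma adjusted p = 0.000257). Rpa1, the large DNA-binding subunit, had 565, 575 and 530 in untreated tumour, against 567, 504 and 559 in contralateral and 402, 486 and 478 in sham libraries (0.04 ± 0.13, limma adjusted p = 0.853). Untreated tumour and contralateral values of Rpa1 overlapped throughout. Against sham vessels the untreated tumour libraries lay above without overlap (all genes: 27.6%), and Rpa1 was not called. Rpa3, the small subunit, had a log2 fold change of 0.63 ± 0.36 and was not called.

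The enzymes that finish Okazaki fragments were among those that rose most. Dna2, a nuclease and helicase that cuts long flaps, had 193, 96 and 167 in untreated tumour, against 29, 17 and 18 in contralateral and 26, 15 and 14 in sham libraries (2.76 ± 0.41, limma adjusted p = 2.97e-05). Lig1, the ligase that seals the nicks, had 598, 618 and 453 in untreated tumour, against 124, 147 and 166 in contralateral and 141, 177 and 173 in sham libraries (1.92 ± 0.17, limma adjusted p = 1.23e-07). Neither gene overlapped between the tumour and the other vessels. Fen1 had scores between 0 and 16 over all 15 libraries and gives no measure of its level here: 84.2% of its exon bases are shared with other genes, most of them with Gm10143 on the opposite strand, and whether reads were assigned by strand is not known here.

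RNase H enzymes remove RNA from RNA:DNA hybrids. Rnaseh2b, an accessory subunit of RNase H2, had 185, 143 and 119 in untreated tumour, against 55, 59 and 55 in contralateral and 44, 45 and 44 in sham libraries (1.36 ± 0.26, limma adjusted p = 0.000363). Rnaseh2a, its catalytic subunit, rose by 0.94 ± 0.27. Rnaseh2c, the other accessory subunit, was the only tested member with a negative value, at 228, 306 and 193 in untreated tumour, against 320, 294 and 316 in contralateral and 215, 294 and 287 in sham libraries (-0.38 ± 0.17, limma adjusted p = 0.0884). Without untreated tumour replicate 2, which overlapped contralateral vessels, it fell by 0.56 (limma adjusted p = 0.0134). The gene shares 24.8% of its exon bases with Kat5 on the opposite strand. Rnaseh1, which serves nuclei and mitochondria, was not called at 0.57 ± 0.31.

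Ssbp1 codes for the single-strand binding protein of mitochondria and stands apart from the nuclear fork. Its scores were 461, 363 and 367 in untreated tumour, against 138, 148 and 146 in contralateral and 134, 151 and 149 in sham libraries (1.45 ± 0.17, limma adjusted p = 2.83e-06), with no overlap. Of 9 other genes of mitochondrial DNA replication, 3 rose (all genes: 21.1%): Twnk, the mitochondrial helicase, by 1.04 ± 0.24, Primpol by 0.91 ± 0.23 and Mgme1 by 0.57 ± 0.19. Against sham vessels 2 rose (all genes: 23.3%), and Mgme1 was not called. The polymerase Polg and the packaging factor Tfam were among the 6 not called against contralateral vessels.

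No replication gene passed the test between contralateral and sham vessels, although their summed scores did not overlap, at 5862 to 6130 in contralateral and 5475 to 5649 in sham libraries. None of the 34 members rose (all genes: 0.254%) and none fell (all genes: 0.178%) by limma, and 2 had an unadjusted p below 0.05. The voom fit also called 0 members. The median log2 fold change was 0.14, with 25 of 34 values positive. In 7 members (Rpa1, Pole2, Rnaseh2b, Pola2, Mcm6, Mcm3 and Rnaseh2a) the contralateral libraries lay above the sham libraries without overlap (all genes: 8.5%), and in 0 they lay below (all genes: 12.5%). The largest was that of Pole2, at 24, 33 and 22 in contralateral and 9, 13 and 20 in sham libraries (0.91 ± 0.38, limma adjusted p = 0.339). A limma adjusted p above the threshold does not show that the levels were equal.

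Most of the genes that were high in tumour were lower in vessels of both therapy groups. Member scores summed to 6528, 6644 and 6925 after triple therapy and to 7234, 7419 and 6595 after dual therapy, against the 11499 to 14337 of untreated tumour. With triple therapy 0 members rose (all genes: 17.2%) and 23 fell (all genes: 15%), and with dual therapy 0 rose (all genes: 12.1%) and 23 fell (all genes: 10.2%). Median log2 fold changes were -1.04 with triple and -0.86 with dual therapy, beside -0.02 and -0.01 over all genes tested. Both comparisons share the untreated tumour libraries, and so does the comparison with contralateral vessels, so their values are set side by side and the overlap of their calls is no independent result. Among the 25 genes high in tumour, Rfc2 and Pold3 were not called with either therapy.

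**Figure D3:**
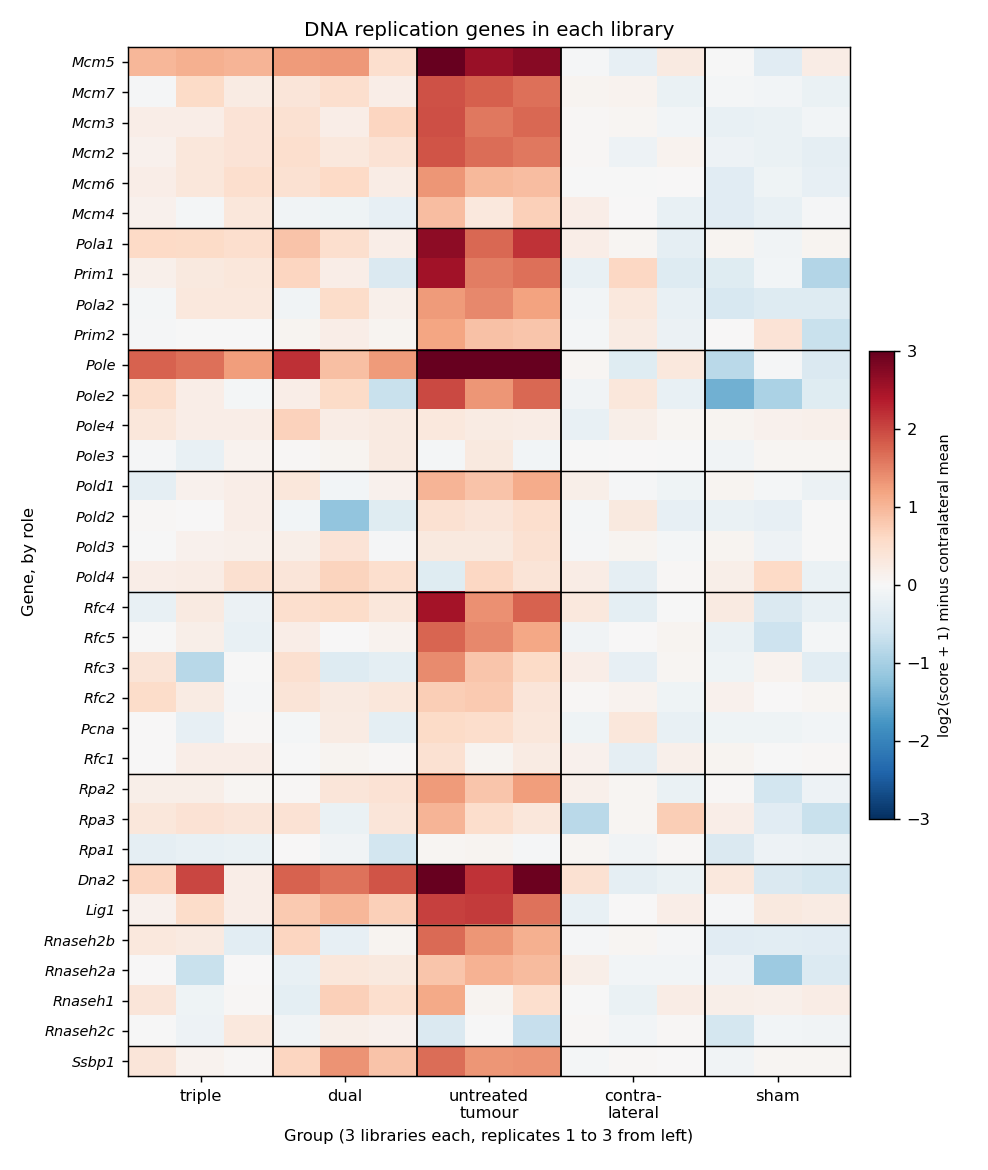
Log2(score + 1) of the 34 tested genes minus their contralateral mean, by role (rows) and library (columns, 3 per group, triple therapy, dual therapy, untreated tumour, contralateral and sham). Colours stop at 3 in either direction. Pole passes this limit in all 3 untreated tumour libraries, and Mcm5 and Dna2 pass it in untreated tumour replicate 1. The treated columns are much paler than the untreated tumour columns.

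All 6 helicase subunits fell with each therapy. Mcm5 had 171, 178 and 174 after triple and 209, 210 and 121 after dual therapy, all far below the 515 to 748 of untreated tumour (-1.78 ± 0.22 with triple, limma adjusted p = 1.21e-05, and -1.78 ± 0.22 with dual, limma adjusted p = 4.08e-05). Mcm2 had 184, 215 and 226 after triple and 239, 211 and 228 after dual therapy, against 508 to 622 in untreated tumour (-1.41 ± 0.14 with triple and -1.29 ± 0.14 with dual). Mcm4 had 481, 421 and 552 after triple and 410, 402 and 369 after dual therapy, against 544 to 829 in untreated tumour (-0.51 ± 0.15 with triple and -0.81 ± 0.15 with dual). The highest triple therapy library overlapped untreated tumour for Mcm4, and without triple therapy replicate 2, untreated tumour replicate 1 or untreated tumour replicate 3 its call was lost (limma adjusted p = 0.0794, 0.0926 and 0.0522).

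All 4 subunits of polymerase alpha and primase fell with each therapy too. Pola1 had 388, 382 and 368 after triple and 463, 368 and 295 after dual therapy, against 857 to 1649 in untreated tumour (-1.64 ± 0.20 with triple, limma adjusted p = 9.8e-06, and -1.68 ± 0.20 with dual, limma adjusted p = 2.79e-05). Prim2 had 97, 99 and 99 after triple and 105, 115 and 105 after dual therapy, against 177 to 227 in untreated tumour (-0.98 ± 0.23 with triple and -0.84 ± 0.23 with dual). The treated libraries lay below the untreated ones without overlap for both genes. The call of Prim2 with dual therapy was lost without untreated tumour replicate 1 (limma adjusted p = 0.0601).

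Pole fell most of all members. It had 100, 93 and 70 after triple and 136, 55 and 71 after dual therapy, against 452 to 711 in untreated tumour (-2.65 ± 0.31 with triple, limma adjusted p = 8.6e-06, and -2.74 ± 0.31 with dual, limma adjusted p = 2.21e-05). Pole2 fell by 1.45 with triple and by 1.65 with dual therapy on the log2 scale. Pole3 had 379, 328 and 414 after triple and 394, 411 and 467 after dual therapy, against 362 to 471 in untreated tumour, and was called with neither. Pold1 had 88, 117 and 123 after triple and 135, 100 and 116 after dual therapy, against 194 to 233 in untreated tumour (-0.98 ± 0.18 with triple and -0.88 ± 0.18 with dual). Pold4 had 112, 114 and 136 after triple and 126, 155 and 139 after dual therapy, within or near the 76 to 150 of untreated tumour. Pold2, a structural subunit that was not called in tumour, had 73, 72 and 82 after triple and 67, 31 and 55 after dual therapy, against 98, 92 and 101 in untreated tumour. It fell with dual therapy (-0.98 ± 0.26, limma adjusted p = 0.0108) and was not called with triple (-0.36 ± 0.26, limma adjusted p = 0.312), while the therapies themselves differed by 0.63 ± 0.26 (triple over dual, limma adjusted p = 0.263). The call with dual therapy was lost without dual therapy replicate 2 (-0.67, limma adjusted p = 0.059), without both libraries set apart (limma adjusted p = 0.0609), and with the 6 libraries alone, without and with a replicate block (limma adjusted p = 0.0741 and 0.051).

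Of the clamp and loader genes, 4 of 6 fell with each therapy, Pcna, Rfc3, Rfc4 and Rfc5. The fall of Rfc3 with dual therapy lost its call with 8 of the alternatives, among them without untreated tumour replicate 1 or dual therapy replicate 2 or 3 (limma adjusted p = 0.171, 0.127 and 0.107), and its fall with triple therapy without untreated tumour replicate 1 or triple therapy replicate 2 (limma adjusted p = 0.0953 and 0.104). Rfc4 had 43, 61 and 45 after triple and 72, 74 and 64 after dual therapy, against 133 to 288 in untreated tumour (-1.92 ± 0.29 with triple and -1.42 ± 0.29 with dual). Rfc1 had 622, 704 and 706 after triple and 616, 653 and 634 after dual therapy, against 654 to 844 in untreated tumour, and was called with neither. Pcna had 427, 352 and 432 after triple and 403, 501 and 345 after dual therapy, against 533 to 627 in untreated tumour (-0.55 ± 0.16 with triple, limma adjusted p = 0.0117, and -0.51 ± 0.16 with dual, limma adjusted p = 0.0242). The groups did not overlap for Pcna. Its call with dual therapy was lost with 7 of the alternatives. Among them were the fits without untreated tumour replicate 1 or 2, or without dual therapy replicate 1 or 3 (limma adjusted p = 0.0827, 0.05, 0.0566 and 0.113). The call of Pcna with triple therapy was lost without triple therapy replicate 2 (limma adjusted p = 0.0602).

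Rpa2 had 97, 96 and 89 after triple and 88, 111 and 116 after dual therapy, against 153 to 209 in untreated tumour, and fell with both (-0.99 ± 0.21 with triple and -0.84 ± 0.21 with dual). Rpa1 had 451, 463 and 474 after triple and 545, 508 and 370 after dual therapy, against 530 to 575 in untreated tumour, and was called with neither. Rnaseh2b had 70, 68 and 45 after triple and 88, 47 and 60 after dual therapy, against 119 to 185 in untreated tumour, and fell with both (-1.28 ± 0.26 with triple and -1.21 ± 0.26 with dual). Rnaseh2a also fell with both, and with dual therapy (-0.81 ± 0.27, limma adjusted p = 0.0367) the call was lost with 8 of the alternatives, among them without any of untreated tumour replicates 1, 2 and 3 and without dual therapy replicate 1 or 3 (limma adjusted p between 0.0512 and 0.135). Rnaseh2c had 306, 280 and 385 after triple and 288, 350 and 338 after dual therapy, against 193 to 306 in untreated tumour, at 0.43 ± 0.17 with triple and 0.44 ± 0.17 with dual, and was not called. Without untreated tumour replicate 2 it rose with each (0.61, limma adjusted p = 0.0109 with triple, and 0.63, limma adjusted p = 0.0131 with dual).

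For Lig1, Dna2 and Ssbp1, most triple therapy values were below those of dual therapy, and only Ssbp1 differed between the therapies by test. Lig1 had 157, 213 and 167 after triple and 248, 288 and 239 after dual therapy, against 453 to 618 in untreated tumour, and fell with both (-1.63 ± 0.17 with triple and -1.09 ± 0.17 with dual). Dna2 had 33, 86 and 24 after triple and 73, 66 and 80 after dual therapy, against 96 to 193 in untreated tumour. Its triple therapy replicate 2 lay above all dual therapy libraries. Dna2 fell with triple therapy (-1.81 ± 0.41, limma adjusted p = 0.00247), and with dual therapy its value of -0.99 ± 0.41 was not called (limma adjusted p = 0.0887). Without untreated tumour replicate 2, Dna2 fell with dual therapy too (-1.29, limma adjusted p = 0.0386). Ssbp1 had 185, 156 and 147 after triple and 227, 368 and 263 after dual therapy, against 363 to 461 in untreated tumour, and fell with both (-1.28 ± 0.17 with triple, limma adjusted p = 2.78e-05, and -0.49 ± 0.17 with dual, limma adjusted p = 0.0467). Dual therapy replicate 2 overlapped untreated tumour. The fall of Ssbp1 with dual therapy lost its call with 9 of the alternatives, among them no filter, no trend and the replicate block. It was also lost when untreated tumour replicate 1 or 3, or dual therapy replicate 1 or 3, was left out (limma adjusted p = 0.189, 0.059, 0.191 and 0.122).

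**Figure D4:**
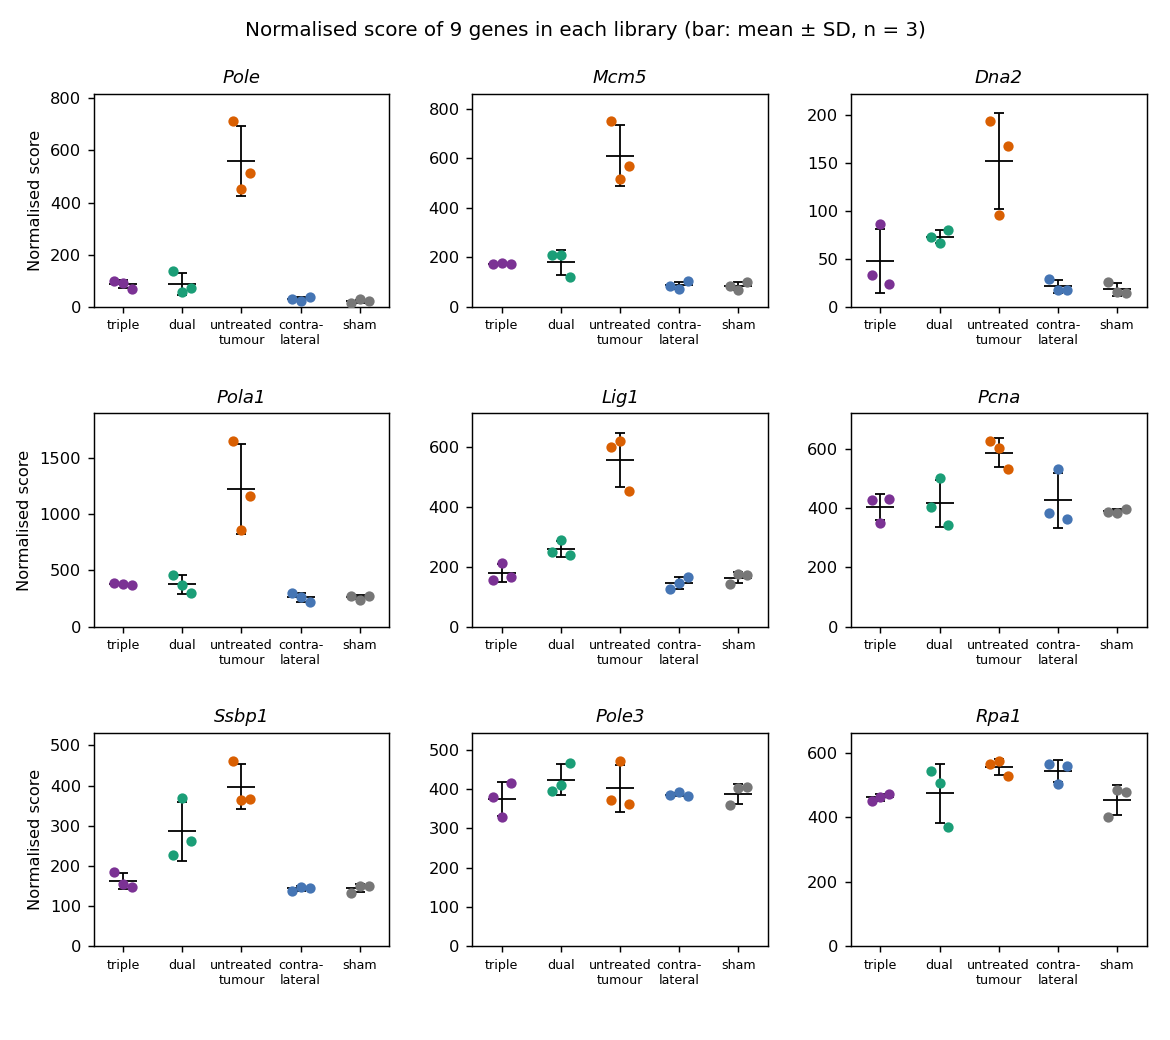
Normalised score of 9 genes in each library (points) with group mean and SD (n = 3), in triple therapy, dual therapy, untreated tumour, contralateral and sham vessels. Pole, Mcm5, Dna2, Pola1 and Lig1 are highest in untreated tumour, and Ssbp1 is lower after triple than after dual therapy. Over all libraries Pole3 runs from 328 to 471 and Rpa1 from 370 to 575.

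Triple and dual therapy, which differ by anti-PD1, differed by test in 1 of these genes. Of the 34 members 0 rose (all genes: 0.524%) and 1 fell (all genes: 0.346%), Ssbp1, with 185, 156 and 147 after triple and 227, 368 and 263 after dual therapy (-0.79 ± 0.17, limma adjusted p = 0.0374). The groups did not overlap. The call was lost without dual therapy replicate 2 (-0.59, limma adjusted p = 0.187) and without triple therapy replicate 1, 2 or 3 (limma adjusted p = 0.0884, 0.0952 and 0.141). In 4 members triple therapy lay below dual therapy without overlap (all genes: 9.4%), and in 2 it lay above (all genes: 9.27%). Lig1 was among the 4 and was not called (-0.53 ± 0.17, limma adjusted p = 0.144). For the 6 helicase genes the difference of triple over dual therapy lay between -0.16 and 0.29 on the log2 scale, each with an SE of 0.14 to 0.22, and it was 0.04 ± 0.20 for Pola1 and 0.10 ± 0.31 for Pole. Values this close to 0 at these errors do not show that the therapies act alike.

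Treated tumour vessels were closer to contralateral vessels, and a few members were above them by test. Triple therapy left 2 members higher than contralateral vessels (all genes: 4.15%) and 0 lower (all genes: 0.824%). Dual therapy left 6 higher (all genes: 6.91%) and 0 lower (all genes: 5.89%). The 2 of 34 after triple therapy are near the share of all genes. Mcm5 and Pole were higher after each therapy. Mcm5 was higher by 1.03 ± 0.22 after triple (limma adjusted p = 0.00698) and by 1.03 ± 0.22 after dual therapy (limma adjusted p = 0.00399), and Pole by 1.56 ± 0.31 after triple (limma adjusted p = 0.0043) and by 1.46 ± 0.31 after dual therapy (limma adjusted p = 0.00406). The other members higher after dual therapy were Dna2 (1.76 ± 0.41), Ssbp1 (0.96 ± 0.17), Lig1 (0.83 ± 0.17) and Mcm6 (0.43 ± 0.14, limma adjusted p = 0.0449). The call of Mcm6 was lost with 13 of the alternatives (limma adjusted p between 0.0578 and 0.167). Among them were no filter, no trend, the replicate block, voom, and the fits without contralateral replicate 1, 2 or 3 or dual therapy replicate 1 or 2. Whether dual and triple therapy differ in what remained was tested only as the direct comparison of the therapies above.

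Genes that act around the fork moved with it. Of 22 genes of origin licensing and firing, 15 rose in untreated tumour against contralateral vessels (all genes: 21.1%) and 0 fell (all genes: 21.4%), led by Cdc6, which loads the helicase (119.7 ± 56.6 against 2.67 ± 2.52, SD, n = 3 each, 5.29 ± 0.56 on the log2 scale), Ticrr and Recql4, which help to fire it (4.95 ± 0.51 and 4.64 ± 0.43). With triple therapy 15 of the 22 fell (all genes: 15%), and with dual therapy 14 (all genes: 10.2%). Of 16 genes of fork protection and chromatin assembly, 12 rose (all genes: 21.1%), led by Top2a, which untangles sister DNA (5.68 ± 0.33), Dscc1 of a clamp loader for cohesion (4.63 ± 0.72) and the checkpoint mediator Clspn (4.36 ± 0.34), and 11 fell with triple (all genes: 15%) and 10 with dual therapy (all genes: 10.2%). The medians of these lists in untreated tumour were 1.54 and 1.63, beside 0.01 over all genes.

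Genes listed for deoxynucleotide supply mostly followed the same course. Of 14 genes, 11 rose in untreated tumour (all genes: 21.1%), led by Rrm2, the S phase subunit of ribonucleotide reductase (226 ± 72.3 against 13.33 ± 5.03, 4.01 ± 0.45), Dctd (3.50 ± 0.50) and the thymidine kinase Tk1 (3.20 ± 0.55). The 1 that fell was Rrm2b, the reductase subunit of non-dividing cells under p53 (-0.66), which averaged 391 in untreated tumour and 616.7 in contralateral vessels. With triple therapy 10 fell (all genes: 15%) and Rrm2b rose (0.52), and with dual therapy 9 fell (all genes: 10.2%) and Rrm2b rose (0.49). Of the 11 that rose in tumour, Samhd1, which breaks deoxynucleotides down, fell with neither therapy and Nme1 was not called with dual. Samhd1 had 3471, 3196 and 4259 in untreated tumour and 1950, 1327 and 1804 in contralateral libraries. It had 3225, 4336 and 2456 after triple and 4713, 3664 and 3313 after dual therapy, higher than contralateral vessels by test after each.

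Of 28 regulators of the entry into S phase, 18 rose in untreated tumour (all genes: 21.1%), led by Cdkn2a, which codes for inhibitors of Cdk4 and of Mdm2 (140 ± 84.1 against 1.67 ± 2.08, 5.88 ± 0.57), the E2F family member E2f8 (5.05 ± 0.51) and cyclin A2, Ccna2 (4.28 ± 0.33). The 5 that fell, near the share of all genes (21.4%), were the CDK inhibitors Cdkn1c (-1.35), Cdkn1a (-0.61) and Cdkn1b (-0.39), the E2F partner Tfdp2 (-0.60) and the Rb-like Rbl2 (-0.31). With each therapy 16 of the 28 fell (all genes: 15% with triple and 10.2% with dual), led by E2f8, Ccna2 and Cdkn2a. The genes of the list that rose with therapy were near the share of all genes (17.2% with triple and 12.1% with dual). With triple therapy they were 5, Cdkn1c (1.0), Cdkn1a (0.88), Ccnd2 (0.57), Tfdp2 (0.33) and Rbl2 (0.30), and with dual therapy 4, Cdkn1c (1.09), Cdkn1a (0.77), Ccnd2 (0.53) and Tfdp2 (0.34).

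**Figure D5:**
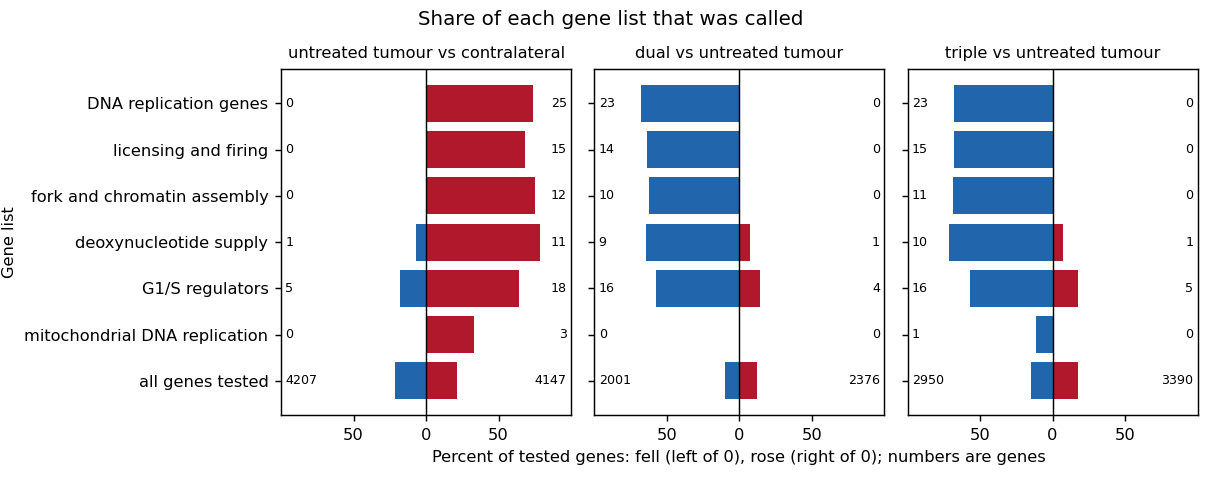
Share of the tested genes of each list that rose (right of 0) or fell (left of 0) in untreated tumour against contralateral vessels and in dual and triple therapy against untreated tumour, with the number of genes at the edges. In the first panel 25 replication genes rose against 0 that fell, where all genes tested divide nearly evenly at 4147 against 4207.

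Other measures moved with these genes, and their part in the result was not tested. Untreated tumour replicate 1 held the highest value of its group in 19 of the 25 genes that rose. The same library had the highest sum of 8 cycling markers, 12560, against 5416 and 7898 in the other untreated tumour libraries, 1384 to 1758 after triple therapy, 971 to 1624 after dual therapy, 114 to 254 in contralateral and 173 to 213 in sham libraries. It also had the lowest endothelial sum, and the 12 endothelial markers summed to between 63191 and 86133 in untreated tumour, against 82795 to 105493 after triple therapy, 92601 to 109661 after dual therapy, 100804 to 110830 in contralateral and 102081 to 105562 in sham libraries. Most of the gap in this sum lay in Ptprb, a receptor phosphatase of endothelium, at 21174, 32980 and 33400 in untreated tumour, against 56590, 44243 and 49035 in contralateral libraries. By gene, 3 of the 12 fell, near the share of all genes (21.4%), Egfl7 rose (all genes: 21.1%) and 8 were not called. The median log2 fold change of the 12 was -0.25, and none was at 0 in any library. With the libraries scaled to these markers in place of the authors' scaling, the median of all genes in untreated tumour over contralateral vessels moved by 0.24 on the log2 scale. Of all called genes 68.8% then rose (49.6% with the authors' scaling). Under this scaling 26 members rose (all genes: 5233 of 19668) and 0 fell (all genes: 2375). Pericyte markers summed to between 23984 and 28726 in untreated tumour and between 53751 and 68667 in contralateral vessels. By test 9 of 10 fell in untreated tumour against contralateral vessels (all genes: 21.4%). With therapy pericyte markers rose against untreated tumour, 9 of 10 with triple (all genes: 17.2%) and 7 of 10 with dual (all genes: 12.1%).

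Markers of T and NK cells and of macrophages and microglia were higher in tumour libraries as well, while glial progenitor and astrocyte markers went both ways. The 15 markers of T and NK cells summed to between 1524 and 1715 in untreated tumour, against 629 to 1281 after triple therapy, 967 to 1400 after dual therapy, 92 to 206 in contralateral and 73 to 131 in sham libraries, and 14 of them rose in untreated tumour against contralateral vessels (all genes: 21.1%). Cd3e had 122, 98 and 123 in untreated tumour, against 9, 2 and 10 in contralateral and 1, 0 and 3 in sham libraries. With triple therapy 3 of the 15 fell, near the share of all genes (15%). With dual therapy 0 fell by limma (all genes: 10.2%), where 2 had an unadjusted p below 0.05. The 12 macrophage and microglia markers summed to between 4065 and 4826 in untreated tumour and between 2245 and 2490 in contralateral vessels. Of the 12, 11 rose (all genes: 21.1%). Of 11 markers of glial progenitors and glioma, 7 rose (all genes: 21.1%) in untreated tumour against contralateral vessels, with a median of 0.98. In that comparison 2 fell, near the share of all genes (21.4%). Against sham vessels 5 rose (all genes: 23.3%) and 2 fell (all genes: 23.3%), with a median of 0.38. The genes that rose most were the Notch ligand Dll3 (4.85 ± 0.78) and the lineage factors Sox10 (3.71 ± 0.35) and Olig2 (3.44 ± 0.28). The 2 that fell were Pdgfra, a growth factor receptor of glial progenitors (-1.49 ± 0.21), at 814, 667 and 1034 in untreated tumour, against 2863, 1637 and 2681 in contralateral libraries, and Cspg5 (-0.63 ± 0.21). With triple therapy 4 of the 11 fell (all genes: 15%) and 2 rose, near the share of all genes (17.2%). With dual therapy 5 fell (all genes: 10.2%) and 1 rose, near the share of all genes (12.1%). Of 10 neuron markers 9 fell in untreated tumour against contralateral vessels (all genes: 21.4%). Against untreated tumour 9 rose with triple (all genes: 17.2%) and 8 with dual therapy (all genes: 12.1%). Of 8 astrocyte markers 4 fell (all genes: 21.4%) and S100b rose (all genes: 21.1%) in untreated tumour against contralateral vessels. Against untreated tumour 4 of the 8 rose with triple (all genes: 17.2%) and 3 with dual therapy (all genes: 12.1%). Which cells carried the replication messages cannot be told apart in these bulk libraries.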

How the data were processed

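Total RNA of brain microvessels was measured in 15 libraries, each a pool of 3 mice. Per the labels' protocols, RNA was purified with a Qiagen kit with DNase and 100 ng went into a stranded Clontech total RNA kit. Per the submitters' processing notes, STAR 2.4.0a, featureCounts 1.4.5-p1 (Subread) and DESeq2 were used with mm10 (GRCm38), and whether counting used strand is not given in the sources. The deposited score is the authors' normalised value, a whole number that fits reads times a library factor, so it is not a count. This factor was recovered from gaps between values (1 read was worth 0.656 to 1.86 units, with a largest error of 0.0004 on 7 simulated libraries) and used only for depth and for voom.

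The 19668 genes with 3 or more libraries at 10 or above were tested (7506 were left out) as log2(score + 1) with limma 3.58.1 in R 4.3.3, 1 mean per group, a mean-variance trend and 10 residual degrees of freedom, in 8 comparisons. P-values were adjusted by Benjamini-Hochberg over all genes tested. P-values measure the spread between pooled libraries, and the labels do not say whether pools were made independently. In 5 simulated data sets of untreated tumour against contralateral vessels (18983 genes tested on average), 100 genes were changed at each fold size. Of genes changed 2-fold 61.4% were called, of those changed 4-fold 97.6%, and 7.77% of calls were false. In the data themselves 4147 genes rose and 4207 fell, many more than were changed in the simulation, so these rates need not hold for them. Exon lengths came from GENCODE M21, which held 27114 of the 27174 identifiers, and promoters from RefSeq (GRCm38.p6). Members and lists were chosen with earlier results of these data known. Named members are, in each role, those with the largest and smallest change in untreated tumour against contralateral vessels, with Mcm2, Pola1, Pcna and members called between the therapies. Of other pathway lists and of glial markers they are up to 3 called genes with the largest change and any against the list, and other marker lists are given by sums and counts. Pole2 against sham, Pold2, Samhd1, Nme1, Cd3e and Ptprb were picked after their values were seen. Alternatives were another pseudocount, no filter, no trend, quality weights, quantile and endothelial marker scaling, fewer libraries, a replicate block, voom, and each library left out.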

Additional observations from a re-analysis of the deposited data

How the results depend on the processing

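The 16 counts of members were taken again under every alternative, and 252 of 272 values stayed within 1.5 times the main count. Many of the 16 main counts were 0, and these were taken as unchanged only where the alternative gave 0 too. The share of unchanged values therefore says less about the counts above 0. No single-gene call reversed, and 84 of 1785 were lost. With quality weights, and without untreated tumour replicate 2 and dual therapy replicate 2, 1 member fell in untreated tumour against contralateral vessels and 1 rose with triple and with dual therapy, against 0 in each, and with quantile normalisation 1 rose with dual therapy. The member was Rnaseh2c each time, and the cause was not tested. In triple against dual therapy the 1 member that fell, Ssbp1, went to 0 with no trend, with endothelial marker scaling, without both libraries set apart, with only the 6 libraries compared, and with a replicate block on those 6. In triple therapy against contralateral vessels voom called 1 member in place of 2. Voom for these counts and the block on 6 libraries were added after seeing the data.

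With 1 library left out, between 23 and 27 members rose in untreated tumour against contralateral vessels (all genes: 3448 to 4110 of 19668) and 24 to 26 against sham (all genes: 3848 to 4543). With triple therapy 20 to 24 fell (all genes: 2059 to 2991), and with dual therapy 18 to 22 (all genes: 1144 to 2151). Against contralateral vessels 2 rose after triple (all genes: 522 to 718) and 5 to 7 after dual therapy (all genes: 973 to 1147). Ranges were 0 to 1 for members that fell in untreated tumour against contralateral vessels, for members that rose with triple or dual therapy, and for members that fell in triple against dual therapy. The labels do not say that replicate numbers pair the libraries, and the data gave no sign of it: over 30 pairs of same-numbered libraries, the deviations from group means correlated between -0.13 and 0.103. With the replicate number as a block, 25 members rose in untreated tumour against contralateral (all genes: 4103 of 19668) and 25 against sham (all genes: 4540). In that fit 23 fell with triple (all genes: 2927) and 22 with dual therapy (all genes: 1999), and 1 fell in triple against dual therapy (all genes: 66). Against contralateral vessels 2 rose after triple (all genes: 811) and 5 after dual therapy (all genes: 1336). Endothelial marker scaling moved the median of all genes by 0.14 in untreated tumour against sham, by -0.19 in dual therapy against untreated tumour, by 0.12 in triple against dual therapy and by 0.17 in triple therapy against contralateral vessels. Depth limits the low genes most, and Fen1 could not be tested.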
